A study of Mus musculus with 4 samples.

Results

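Of 10 genes listed for estrogen synthesis, release or inactivation, 8 had a probe set on the arrays named by their symbol alone. These 8 were measured in mouse endometriotic lesions. The 10 genes were Cyp19a1, Star, Cyp11a1, Hsd17b1, Hsd17b2, Hsd17b4, Hsd17b11, Sts, Sult1e1 and Nr5a1, chosen by name. Some, such as Star and Nr5a1, act upstream and do not themselves convert estrogen. Cyp19a1, for aromatase, and Sts, for steroid sulfatase, were not analysed here, because no probe set carried either symbol in the annotation used. The other 8 genes had 16 probe sets among 45037 that were not controls, and the brightest of each gene, by mean log2 intensity, stood for it. RNA came from lesions of mice given a high-fat diet (2 arrays, HFD-1 and HFD-2 in the labels, here replicates 1 and 2) and of mice given a casein diet, labelled as the control (2 arrays, CAS-1 and CAS-2). The series title describes the model as immunocompetent mice, and the strain, age, duration of feeding and number of animals behind each array are not in the labels. The design implies 1 contrast, high-fat diet against casein diet.

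Estrogen made in a tissue begins with cholesterol, which the product of Star moves into mitochondria and that of Cyp11a1 cuts to pregnenolone. Aromatase then forms estrogens from androgens, and the hydroxysteroid dehydrogenases move estrogen between estrone, which is weak, and estradiol, which is strong. Sulfation by the product of Sult1e1 inactivates estrogen, and steroid sulfatase reverses that step. Nr5a1 encodes steroidogenic factor 1, a nuclear receptor that drives Star, Cyp11a1 and Cyp19a1 in the gonads and the adrenal cortex. In women, endometriotic stroma is known for local expression of aromatase, the STAR protein and this receptor.

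In their brightest probe sets, Hsd17b11 and Hsd17b4 were bright in every lesion array. By the same measure Star was above the middle of the intensity range in every array, and Nr5a1 was just above the dim end. Hsd17b2, Hsd17b1, Cyp11a1 and Sult1e1 lay near the dim end. No member passed the test of the diets, nor did any gene on the array (0%). The largest unevenness lay between arrays of the same diet: Hsd17b11 and Hsd17b2 were highest in casein diet replicate 1, and Star was lowest in high-fat diet replicate 2. Near the dim end means a mean under the 40th percentile of all probe sets, an intensity of 33.9. Genes above it were tested with limma, a linear model fitted to all 12797 such genes, with Benjamini-Hochberg adjustment over all of them. Intensity depends on how well each probe binds, so the levels place a probe set within the range of the array and do not rank genes by abundance.

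**Figure D1:**
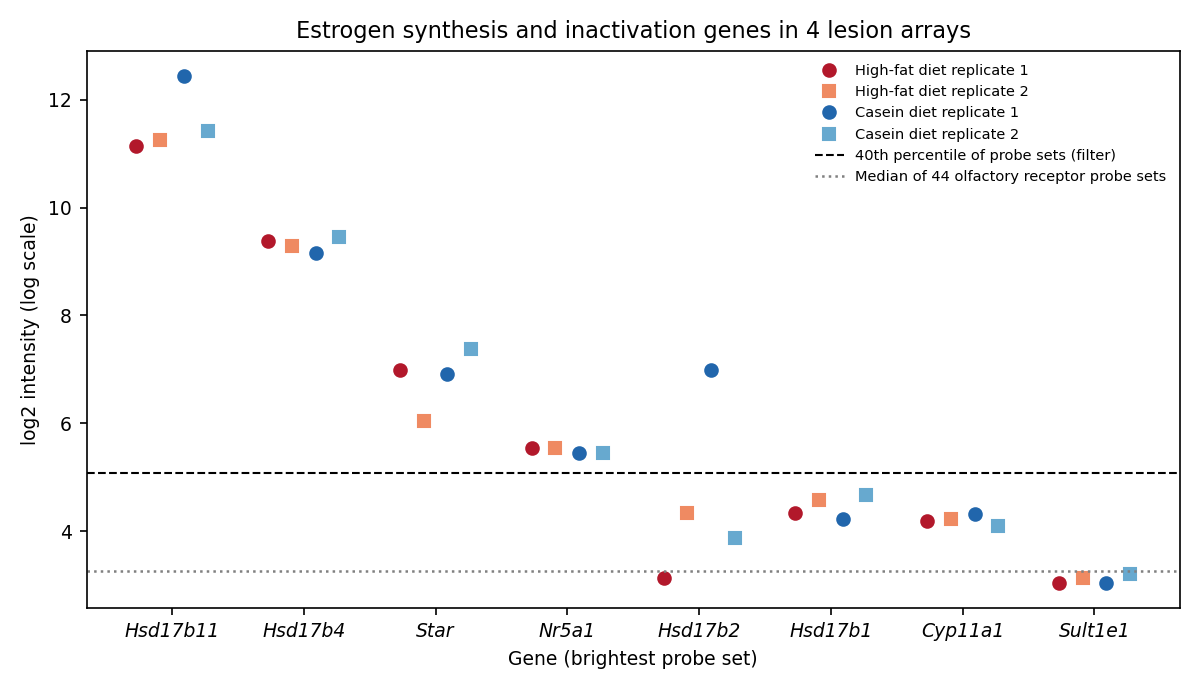
Log2 intensity (vertical axis) of the brightest probe set of 8 genes (horizontal axis) in 2 high-fat diet arrays (red) and 2 casein diet arrays (blue). The dashed line is the filter at an intensity of 33.9 and the dotted line the median of 44 olfactory receptor probe sets, 9.56; casein diet replicate 1 stands above the other arrays for Hsd17b11 and Hsd17b2.

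The arrays had median intensities of 56.4 and 56.0 on the high-fat diet and of 55.1 and 56.5 on the casein diet. Within the diets, 379 tested genes (2.96%) differed by over 2-fold between the high-fat diet arrays, and 580 (4.53%) between the casein diet arrays. In casein diet replicate 1, 280 tested genes (2.19%) were at least 1 log2 above each other array, against 77 (0.60%) in high-fat diet replicate 1. This count was not made for replicate 2 of either diet. The summed intensity of 8 gastric mucosa markers was 354 and 369 on the high-fat diet, against 65011 and 9916 on the casein diet. That of 7 skeletal muscle markers was 23993 and 731 on the high-fat diet, against 595 and 851 on the casein diet. All 10 endometrial stroma markers and all 10 endometrial epithelium markers were above the dim end. Of 9 ovarian follicle markers 5 were above it, and of 5 adrenal cortex markers 2, while the adrenal genes Cyp11b1, Cyp11b2 and Mc2r were near the dim end. In bulk tissue, fewer cells of a type and less RNA per cell cannot be told apart. With 2 arrays a diet the smallest two-sided exact permutation p is 0.333, so single genes were tested only within the limma fit. Nothing in the labels says that the arrays of a diet came from separate animals, so p-values measure only the spread between these samples.

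Star, whose product carries cholesterol to the inner mitochondrial membrane, had intensities of 127 and 65.9 in the high-fat diet lesions, against 121 and 167 in the casein diet lesions. The diets overlapped, and high-fat diet replicate 2 was the low array. Its percentile within each array was 66.5 and 53.2 on the high-fat diet, against 65.6 and 71.6 on the casein diet. The log2 difference, high-fat minus casein diet, was -0.64 (SE 0.39, 95% interval -1.75 to 0.47), with a limma adjusted p = 0.863. The gap between the high-fat diet arrays was 0.94 log2, larger than the difference between the diets. Leaving out high-fat diet replicate 2 gave a difference of -0.17, leaving out high-fat diet replicate 1 gave -1.11, and leaving out casein diet replicate 2 gave -0.41.

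The other probe sets of Star showed the same low array. The next brightest, at percentile 49.7 by its mean, read 64.1 and 39.6 on the high-fat diet, against 59.5 and 62.1 on the casein diet. The dimmest read 36.1 and 12.4 on the high-fat diet, against 33.0 and 38.2 on the casein diet. High-fat diet replicate 2 was therefore lowest in the 2 brighter probe sets, by 1.83- and 1.50-fold below the next array. It was also lowest in the dimmest, by 2.65-fold, but that probe set was near the dim end, at a mean of 27.4. Its readings of 12.4 and 33.0 were both under the filter and have no firm order or fold. The log2 differences of the 3 probe sets were -0.64, -0.27 and -0.75. High-fat diet replicate 2 also had the highest intensity for all 5 adipocyte markers measured, of which Cidec and Lep were near the dim end. The adipocyte sums were 1440 and 2797 on the high-fat diet, against 759 and 931 on the casein diet. Smooth muscle markers had their lowest sum in that array. Their sums were 15432 and 12859 on the high-fat diet, against 21004.5 and 24955 on the casein diet. All 6 were highest in casein diet replicate 2, as was Star in its brightest probe set. The part of either tissue in the level of Star was not tested.

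Cyp11a1, for the enzyme that cuts the side chain of cholesterol, was near the dim end in its brightest probe set. That probe set read 18.2 and 18.7 in the high-fat diet lesions, against 19.8 and 17.0 in the casein diet lesions, a log2 difference of 0.0050. The arrays were nearly level. A second probe set of almost the same mean read 43.9 and 12.9 on the high-fat diet, against 13.5 and 13.3 on the casein diet. Here high-fat diet replicate 1 alone was above the dim end, and it was the array in which all 7 skeletal muscle markers were highest; their part was not tested. The third probe set, the dimmest, read 4.96 and 5.12 on the high-fat diet, against 5.35 and 6.99 on the casein diet, below most olfactory receptor probe sets.

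Nr5a1, the nuclear receptor gene that regulates Star and Cyp11a1 in steroid-making glands, was the tested member nearest to the filter, at a mean intensity of 45.0. It had intensities of 46.3 and 46.4 on the high-fat diet, against 43.6 and 43.9 on the casein diet. The diets did not overlap, and the arrays of each diet were almost equal, but the log2 difference was only 0.08 (SE 0.09, 95% interval -0.17 to 0.33, limma adjusted p = 0.878). A second probe set was dimmer and overlapped, with 12.2 and 13.3 on the high-fat diet, against 12.7 and 11.2 on the casein diet. The brighter probe set lay above 42 of 44 probe sets of olfactory receptor genes, which lesions would not be thought to express. The dimmer one lay above only 30 of the 44.

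Promoter sequence bears on this receptor because it binds DNA at AGGTCA, preferably in the longer form AAGGTCA, which contains it. RefSeq windows (build GRCm38.p6) from 250 bases before to 50 after a gene's start were found for 4 of the 10 genes, Cyp11a1, Cyp19a1, Hsd17b11 and Sult1e1, and 3 windows are shown: 1 of the 2 starts of Cyp11a1 as a receptor target, Sult1e1 for the longer form of the motif, and Hsd17b11 as the brightest member. Capitals mark AGGTCA or its reverse complement TGACCT, both strands having been searched. The window of Cyp19a1, a gene without a probe set here, was not looked at singly for matches. The Cyp11a1 window is chr9:58014702-58015001 on the plus strand, that of Sult1e1 chr5:87591562-87591861 on the minus strand, and that of Hsd17b11 chr5:104021747-104022046 on the minus strand.
Cyp11a1: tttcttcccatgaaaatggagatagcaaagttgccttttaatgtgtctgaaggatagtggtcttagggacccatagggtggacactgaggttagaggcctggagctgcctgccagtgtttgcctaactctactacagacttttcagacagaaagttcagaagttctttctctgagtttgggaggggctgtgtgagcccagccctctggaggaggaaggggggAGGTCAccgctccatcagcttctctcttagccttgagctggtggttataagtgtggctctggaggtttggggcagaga
Sult1e1: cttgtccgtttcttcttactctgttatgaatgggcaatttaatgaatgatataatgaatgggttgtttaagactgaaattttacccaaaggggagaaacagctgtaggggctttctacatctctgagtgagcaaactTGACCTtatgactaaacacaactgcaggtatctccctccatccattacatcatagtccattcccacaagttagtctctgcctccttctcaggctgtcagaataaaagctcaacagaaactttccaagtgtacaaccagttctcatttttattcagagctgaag
Hsd17b11: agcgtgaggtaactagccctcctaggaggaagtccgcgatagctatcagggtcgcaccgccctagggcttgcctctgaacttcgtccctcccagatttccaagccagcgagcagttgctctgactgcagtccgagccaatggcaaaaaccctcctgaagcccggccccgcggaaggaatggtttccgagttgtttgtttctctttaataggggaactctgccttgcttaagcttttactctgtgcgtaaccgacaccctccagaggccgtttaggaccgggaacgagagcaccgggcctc
The Cyp11a1 window shown held 1 match to AGGTCA, while the window at its other start, chr9:57997774-57998073 on the plus strand, held neither form. The Sult1e1 window held 1 match, which was also AAGGTCA, and neither form was found in the Hsd17b11 window. Over all 32851 windows of this length, 16.3% held AGGTCA and 4.72% held AAGGTCA. A match is a string of letters and not a shown site, and its absence says nothing about binding.

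Hsd17b1, for the dehydrogenase that reduces estrone to estradiol, had 1 probe set and was near the dim end. It read 20.2 and 24.0 in the high-fat diet lesions, against 18.6 and 25.5 in the casein diet lesions. Both high-fat diet arrays lay between the casein diet arrays. The log2 difference was 0.02, and in a limma fit without the filter its 95% interval was -0.56 to 0.59 (adjusted p = 0.994). Dim probe sets respond less to a change in RNA, so this interval describes the signal and not the transcript.

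Hsd17b2, for the dehydrogenase that oxidises estradiol back to estrone, was clearly measured in a single array. It read 8.81 and 20.2 in the high-fat diet lesions, against 128 and 14.7 in the casein diet lesions. Casein diet replicate 1 was alone above the dim end, at percentile 66.6 of that array, and the other 3 values were under the filter and have no firm order or fold. The log2 difference was -1.70, a value that rests on those dim readings, and in the fit without the filter its 95% interval was -5.09 to 1.69 (limma adjusted p = 0.853). The difference was -0.14 without casein diet replicate 1, -1.10 without high-fat diet replicate 1 and -3.26 without casein diet replicate 2.

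Hsd17b4, for a peroxisomal enzyme that oxidises both estradiol and fatty acids, was steady. Its brightest probe set read 664 and 621 on the high-fat diet, against 568 and 699.6 on the casein diet. Both high-fat diet arrays lay within the casein diet range, and all 4 arrays lay between percentiles 90.2 and 92.3. The log2 difference was 0.03 (SE 0.15, 95% interval -0.38 to 0.44, limma adjusted p = 0.980). The second probe set read 618 and 627 on the high-fat diet, against 574 and 716 on the casein diet, with a difference of -0.04. The interval excludes a difference of 1 log2 in either direction for these samples.

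Hsd17b11, for a dehydrogenase of lipid droplets that acts on androgen-derived steroids, had the brightest probe set of the members. It read 2265 and 2429 in the high-fat diet lesions, against 5545 and 2753 in the casein diet lesions. The diets did not overlap, but casein diet replicate 2 lay far nearer to the high-fat diet arrays than to the other casein diet array. The log2 difference was -0.74 (SE 0.38, 95% interval -1.81 to 0.34, limma adjusted p = 0.863), and the gap within the casein diet was 1.01. The difference was -0.23 when casein diet replicate 1 was left out and -1.24 when casein diet replicate 2 was. The second probe set showed the same order of diets, with 84.6 and 83.4 on the high-fat diet, against 293 and 103 on the casein diet, a difference of -1.05. The third probe set was near the dim end, between 6.43 and 8.37 in all arrays, with a difference of 0.06.

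**Figure D2:**
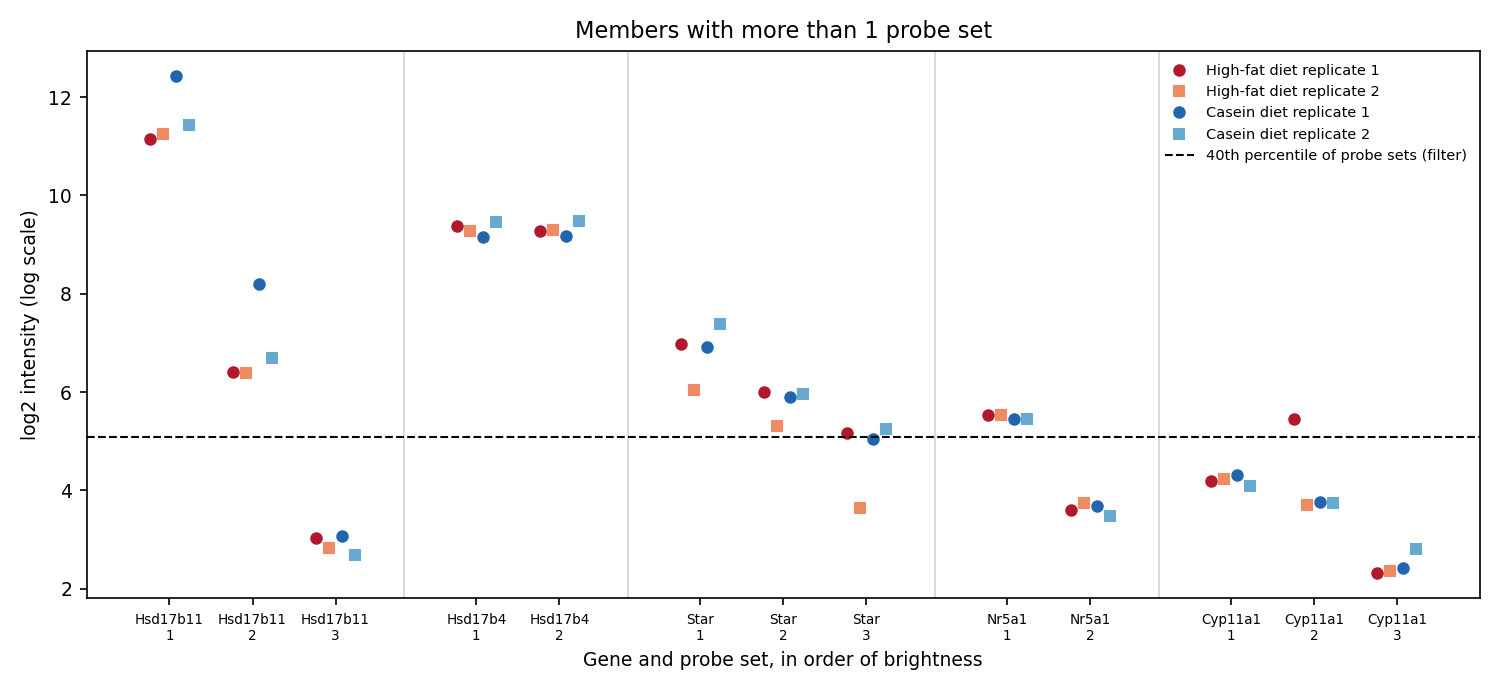
Log2 intensity (vertical axis) of every probe set of the 5 members with more than 1, in order of brightness within a gene, for 2 high-fat diet arrays (red) and 2 casein diet arrays (blue); the dashed line is the filter at 33.9. The 2 brighter Hsd17b11 probe sets share the high array, casein diet replicate 1, and the Cyp11a1 probe sets do not share a pattern. The 3 Star probe sets share the low array, high-fat diet replicate 2, with the dimmest of them near the dim end.

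In the array in which Hsd17b11 and Hsd17b2 were highest, markers of several tissues were high as well. The 10 endometrial epithelium markers summed to 8064 and 12440 on the high-fat diet, against 26712 and 18430 on the casein diet, and 6 of 10 were highest in casein diet replicate 1. These epithelium markers did not move as a block. The keratin gene Krt19 read 261 and 772 on the high-fat diet, against 5236 and 1053 on the casein diet. The uterine homeobox gene Msx1 instead read 201 and 535, against 91.8 and 449. Ltf was also lowest in casein diet replicate 1, and Pax8 and Wnt7a peaked in other arrays. Of the stroma markers, Hoxa10, Hoxa11, Mme and Hand2 were lowest there, with 1886 and 1521 for Hoxa10 on the high-fat diet, against 647 and 1547 on the casein diet. Vim and Emx2 were also lowest there, by a smaller margin. Pgr and Wnt4 were instead highest there, with 2032 and 2068 for Pgr on the high-fat diet, against 2761 and 2600 on the casein diet. Esr1 and Wnt5a were neither highest nor lowest there. Gastric mucosa markers were highest there for 7 of 8 genes and intestinal epithelium markers for 4 of 7. The intestinal sums were 188 and 222 on the high-fat diet, against 3622 and 308 on the casein diet. In that array the intestinal markers Vil1, Lgals4, Zg16 and Fabp2 read 392, 1908, 475 and 792, while Cdx1, Cdx2 and Muc2 were near the dim end there as in the others. The gastric marker Gkn2 read 14933 there, while Atp4a stayed near the dim end in every array. All 4 mesothelium markers were highest in casein diet replicate 1, with sums of 139.8 and 135 on the high-fat diet, against 456 and 280.4 on the casein diet. All 5 hepatocyte markers measured were highest there too, with sums of 112 and 197 on the high-fat diet, against 864 and 172 on the casein diet. Of these, Fgb and Tat were near the dim end, and Tat was nearly equal in the casein diet arrays (25.1 and 25.0). Ovarian follicle markers summed to 1458 and 1456 on the high-fat diet, against 3265 and 1851 on the casein diet. Only 2 of 9 were highest in casein diet replicate 1, where Inhbb read 2614. Exocrine pancreas markers summed to 362 and 332 on the high-fat diet, against 1615 and 374 on the casein diet. Of 5, 3 were highest in casein diet replicate 1, where Cela1 read 1443. The part of these tissues in the level of Hsd17b11 and Hsd17b2 was not tested.

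Sult1e1, for the sulfotransferase that inactivates estrogen, was the dimmest member. Its single probe set read 8.27 and 8.78 on the high-fat diet, against 8.27 and 9.22 on the casein diet, and its mean lay above only 21 of 44 olfactory receptor probe sets. The diets overlapped, and the range over all arrays was 1.11-fold. The log2 difference was -0.04, with a 95% interval of -0.34 to 0.27 in the fit without the filter (limma adjusted p = 0.965). At this level no statement about a difference in transcript can be made.

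**Figure D3:**
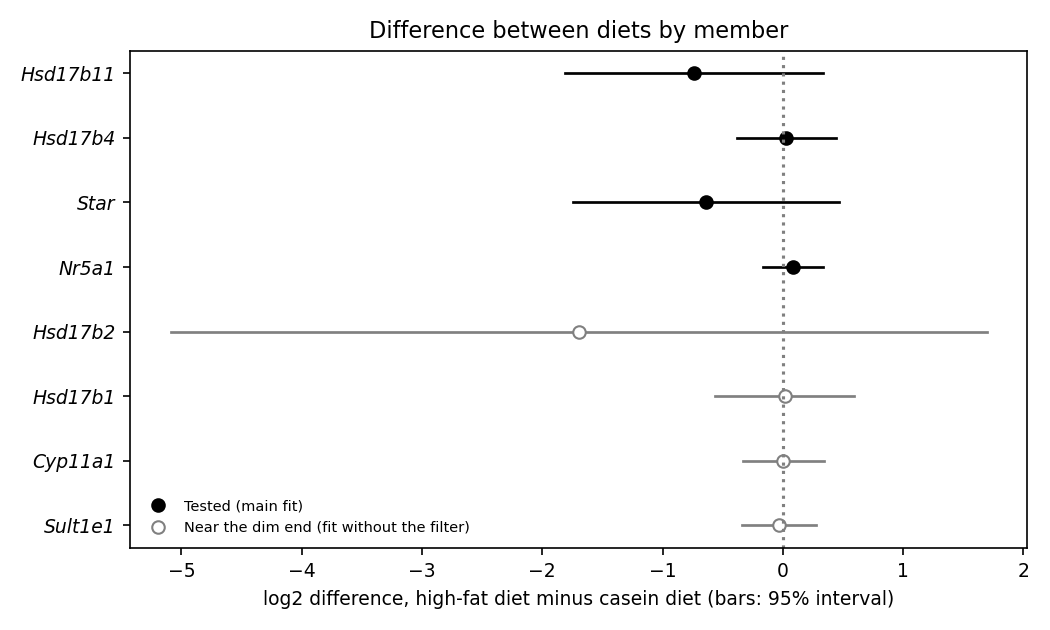
Log2 difference, high-fat diet minus casein diet (horizontal axis), for each member, with its 95% interval from limma (2 arrays a diet). Filled points were tested in the main fit and open points come from the fit without the filter; every interval includes 0, and that of Hsd17b2 is the widest.

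Of the 8 members, 4 reached the filter, and none of the 4 passed limma's test at an adjusted p of 0.05, beside 0% of all tested genes (0 of 12797). At an unadjusted p of 0.05 there were 0 members, beside 4.97% of all tested genes (636), of which the higher ones made up 2.24% of tested genes and the lower ones 2.73%. The diets did not overlap for 2 of the 4, Nr5a1 with higher values and Hsd17b11 with lower values on the high-fat diet, beside 36.0% of all tested genes, 16.6% higher and 19.3% lower. With 4 genes this share cannot be set apart from the background. Without casein diet replicate 2, 17 genes passed over the whole array, and no member was among them (Hsd17b11, limma adjusted p = 0.145).

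**Figure D4:**
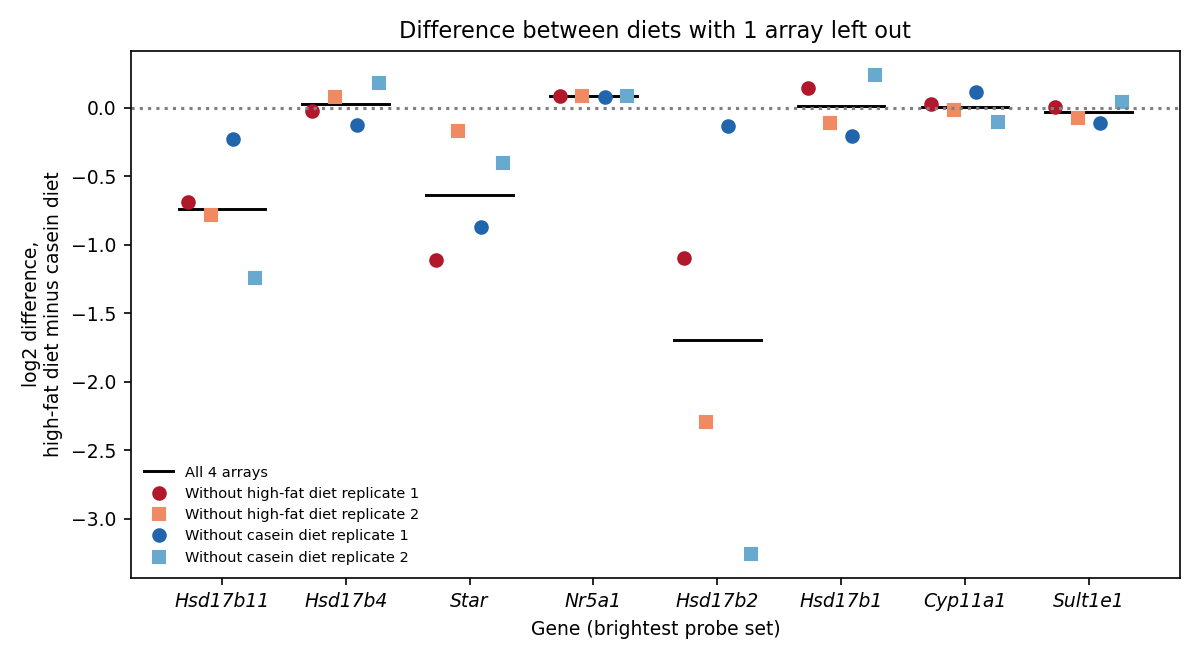
Log2 difference, high-fat diet minus casein diet (vertical axis), of the 8 members with all 4 arrays (black lines) and with each array left out in turn (points). Hsd17b11 ranges from -1.24 to -0.23 and Hsd17b2 from -3.26 to -0.14, whereas Nr5a1 stays between 0.08 and 0.09.

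The 2 tested members with the widest range over the arrays were Star (1.34 log2) and Hsd17b11 (1.29 log2), and the genes most like each in pattern were sought among 12796 others. Likeness was the distance over the 4 arrays between log2 values centred on each gene. Nearest to Star were Diras2 (distance 0.12 log2), Rprm (0.23) and Kctd4 (0.25). Diras2 read 60.6 and 33.9 on the high-fat diet, against 65.3 and 84.1 on the casein diet. Nearest to Hsd17b11 were Itgb4 (distance 0.04 log2), Plekha6 (0.05) and BC035044 (0.07). Itgb4, for an integrin of epithelial attachment, read 83.6 and 89.3 on the high-fat diet, against 199 and 98.1 on the casein diet. With 4 arrays many genes share a pattern, so this is a description only.

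Other genes of steroid supply and conversion were measured for 13 of 18 listed symbols, of which 8 reached the filter. None of the 8 passed, 7 had lower and 1 had higher values on the high-fat diet, and their median was -0.15, beside -0.0051 over all tested genes (6220 higher, 6577 lower). Values of 2 of the 8 did not overlap between the diets, both lower, beside 36.0% of all tested genes (19.3% lower), so the count does not stand out from the background. Hsd17b7, for an enzyme of estradiol formation and cholesterol synthesis, read 79.2 and 82.7 on the high-fat diet, against 147 and 95.8 on the casein diet (log2 difference -0.55, SE 0.24, limma adjusted p = 0.863). Hsd17b12, for a dehydrogenase that also lengthens fatty acids, read 625 and 618 on the high-fat diet, against 963 and 707 on the casein diet (-0.41, SE 0.18). Both were highest in casein diet replicate 1, where Hsd17b11 was also highest. Tspo, for a mitochondrial cholesterol-binding protein, differed by -0.16 (SE 0.17) and the steroid reductase family gene Srd5a3 by 0.15 (SE 0.14). The 5 that did not reach the filter included Cyp17a1 and Hsd3b1, for enzymes that lead from pregnenolone to androgens. Cyp17a1 read 32.2 and 29.0 on the high-fat diet, against 33.3 and 34.7 on the casein diet, and Hsd3b1 read 8.90 and 10.9, against 9.92 and 9.32.

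A mixed list of estrogen inactivation and conjugation with related steroid and sulfate enzymes was measured for 13 of 16 listed symbols, and 9 reached the filter. Besides estrogen-inactivating enzymes it held the glucocorticoid enzyme genes Hsd11b1 and Hsd11b2, the deconjugating glucuronidase gene Gusb and the sulfatase-activating gene Sumf1, so its counts are not values for estrogen inactivation alone. None of the 9 passed, 8 had higher and 1 had lower values on the high-fat diet, and the median of 0.19 was the value of Gusb, beside -0.0051 over all tested genes (6220 higher, 6577 lower). The diets did not overlap for 1 of the 9, Gusb, beside 36.0% of all tested genes. Hsd11b1, for the enzyme that reactivates glucocorticoids, read 415 and 1602 on the high-fat diet, against 218 and 415 on the casein diet (log2 difference 1.44, SE 0.79, limma adjusted p = 0.863). It was highest in high-fat diet replicate 2, where adipocyte markers were also highest. Sult1a1, for a phenol sulfotransferase that accepts estrogen, read 279 and 382 on the high-fat diet, against 121 and 282 on the casein diet (0.82, SE 0.48). Papss2, for an enzyme that makes the sulfate donor, read 352 and 309.5 on the high-fat diet, against 1472 and 306 on the casein diet (-1.02, SE 0.83). Only casein diet replicate 1 was high for Papss2. Gusb differed by 0.19 (SE 0.16).

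Regulators of steroid synthesis were measured for 14 of 15 listed symbols, and 10 reached the filter. None passed, 4 had higher and 6 had lower values on the high-fat diet, with a median of -0.02, and 2 had an unadjusted p under 0.05, beside 4.97% of all tested genes. The diets did not overlap for 4 of the 10, 1 higher and 3 lower, near the share over all tested genes (36.0%, with 16.6% higher and 19.3% lower). Gata6, for a transcription factor that acts with steroidogenic factor 1, read 114 and 93.9 on the high-fat diet, against 293 and 187 on the casein diet (log2 difference -1.18, SE 0.27, limma adjusted p = 0.863). The diets did not overlap, and the highest value again came from casein diet replicate 1, in which the gastric, epithelial, mesothelium and hepatocyte sums were also highest. Crem, for a cyclic AMP responsive factor, read 99.7 and 99.7 on the high-fat diet, against 143 and 129 on the casein diet (-0.45, SE 0.10, limma adjusted p = 0.863). Nr2f2, for a nuclear receptor of uterine stroma, read 1147 and 1220 on the high-fat diet, against 667 and 1078 on the casein diet (0.48, SE 0.27). Nr2f1 differed by -0.34 (SE 0.21). The receptor genes Fshr and Mc2r and the repressor gene Nr0b1 were near the dim end.

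**Figure D5:**
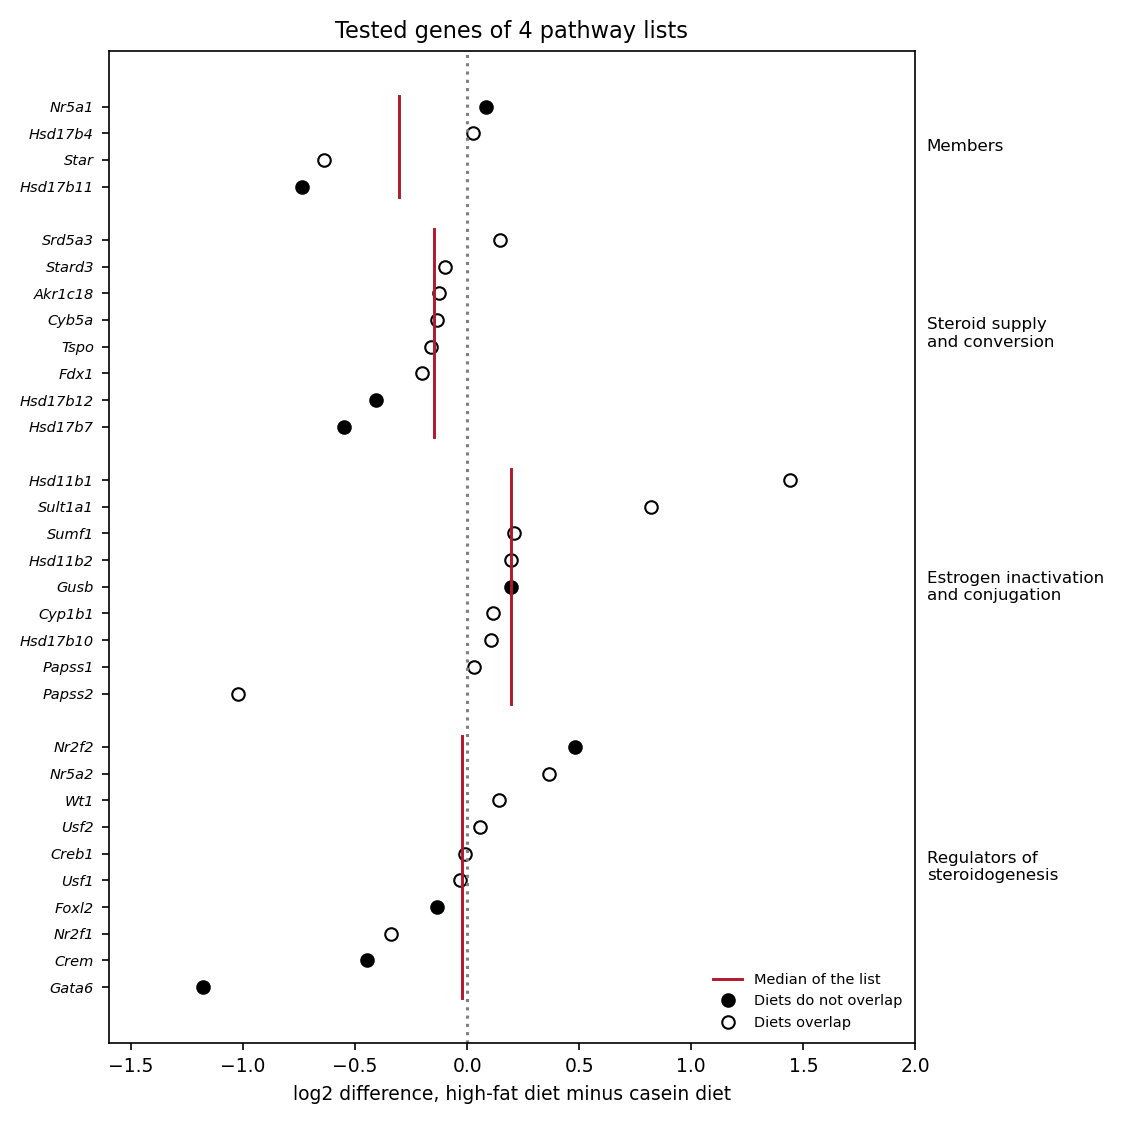
Log2 difference, high-fat diet minus casein diet (horizontal axis), of each tested gene in the member list and 3 further lists, with the list median as a red line. Filled points are genes whose diets do not overlap; the medians are -0.31 for the 4 tested members, -0.15 for steroid supply, 0.19 for inactivation and -0.02 for regulators.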

How the data were processed

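Lesion RNA from 2 high-fat diet and 2 casein diet samples was hybridised to Affymetrix arrays of 45101 probe sets, after biotin labelling from 0.1 µg total RNA, per the labels' protocols. The deposited intensity values are linear and had been normalised between arrays by the authors; GCOS and RMA are named in the submitters' processing notes, with no version or order. No detection calls or scan batches were used.

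Log2 was taken with no pseudocount. Probe sets were named through the platform annotation (34945 with 1 symbol, 932 with several, 9160 with none, 64 controls), and only single-symbol ones were used. The brightest probe set by mean log2 value stood for each of 18193 genes, and genes at or above the 40th percentile were fitted in limma 3.58.1 (R 4.3.3) by lmFit and eBayes, two-sided. The code was tested on simulated data. Groups came from the titles. Same-numbered arrays did not deviate together (r = -0.02 over genes), so replicate number was a block only as an alternative. The other alternatives were normalisation, filter, probe set choice, pseudocount, array weights and leaving out each array. In each other list the 4 tested genes with the smallest p are named, and others named beside them were picked after their values were seen. The members and lists were chosen with earlier results of these data known. Promoter windows are RefSeq's, and figures were drawn with matplotlib 3.10.9.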

Additional observations from a re-analysis of the deposited data

How the results depend on the processing

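No member passed limma's adjusted threshold under any alternative run. Over all genes the count past the threshold was 0 in the main setting and in every alternative but 1: it ranged from 0 to 17 when 1 array was left out, with 17 without casein diet replicate 2. Fits with 1 array left out assume that the lone array varies like the other diet. With the replicate number as a block, 0 genes passed and 576 had an unadjusted p under 0.05, against 636 without it, and it changed no other call. The block left the difference of Hsd17b11 at -0.74 (limma adjusted p = 0.911). Hsd17b4, close to 0, turned sign with the mean of its probe sets (-0.0078), and ranged from -0.12 to 0.18 with 1 array left out, with a negative value (-0.02) when high-fat diet replicate 1 was left out and also (-0.12) when casein diet replicate 1 was. The untested value of Cyp11a1 moved to 0.19 with the mean of its probe sets and to 0.83 with the probe set of highest linear mean, a choice added after seeing the data, since its probe sets differ. Nr5a1 fell outside the test with a filter at the 60th percentile and with the mean of its probe sets. With 2 arrays a diet and 4 members near the dim end, small differences were not detectable. Large ones could be missed as well, since no gene passed in the main setting. The tested gene Gkn2 read 22.3 and 17.4 on the high-fat diet, against 14933 and 2548 on the casein diet. A member that did not pass is therefore not shown to be unchanged.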

Other observations

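Akr1c18, for the enzyme that inactivates progesterone, was the most uneven of the 8 tested steroid supply and conversion genes, and it was singled out after its values were seen. It read 33.6 and 454 on the high-fat diet, against 45.3 and 399 on the casein diet, so that replicate 2 of each diet was high and replicate 1 low. Its log2 difference between the diets was -0.12 (SE 1.78), with a range of 3.75 over the arrays. Msx1, a homeobox gene of uterine epithelium, was likewise higher in replicate 2 of each diet, with 201 and 535 on the high-fat diet, against 91.8 and 449 on the casein diet.

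Gata4, near the dim end by its mean, read 21.2 and 19.6 on the high-fat diet, against 66.0 and 24.8 on the casein diet. Casein diet replicate 1 was the high array, as for Gata6, Hsd17b2 and Papss2 and for all 4 mesothelium and all 5 hepatocyte markers measured. Among these markers Lrrn4, Fgb and Tat were near the dim end, and Tat was nearly equal in the casein diet arrays.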
